A study of Mus musculus with 16 samples.

Results

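The genes described here are named for the proteins of the cytoplasmic ribosome, which most of them encode. They were taken by name, as every gene whose symbol has the form Rpl or Rps followed by its number, together with Rplp0, Rplp1, Rplp2 and Rpsa, without the symbols that end in -ps and without the Rps6k kinases. This gave 85 of the 24981 genes listed in each of the study's 2 expression tables, and 81 of the 85 reached the level needed for a test. Among the 85, GENCODE annotates Rpl32l as a processed pseudogene and Rps4l as a transcribed processed pseudogene. Epidermis of newborn mice (0 to 2 days old) was separated on a Percoll gradient into basal and suprabasal cells, and total RNA of each fraction was sequenced in 16 libraries. Fvb/N mice, labelled Dlx3 wild type, gave 4 basal and 4 suprabasal libraries, and mice labelled as a mix of CD-1 and C57BL/6 contributed 2 libraries for each combination of fraction and Dlx3 genotype, wild type (WT) or knockout (KO). Dlx3 is a homeodomain transcription factor of the differentiating epidermis. The sources used here name neither a Cre driver nor the type of the knockout, and they do not say whether libraries of a group came from separate animals, so p-values measure only the spread between libraries, which may be technical.

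Each ribosome is built from a large and a small subunit, and each subunit needs most of its proteins in equal numbers, so the messages for these proteins are usually regulated together. Most of them start with a short run of pyrimidines, the TOP motif, through which the growth-regulating kinase mTOR and the RNA-binding protein Larp1 control their translation. In the epidermis, the basal layer sits on the basement membrane and holds the dividing cells, while suprabasal cells leave the cycle and fill with keratins Krt1 and Krt10 on their way to the cornified layer.

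Values are RPKM, read numbers divided by gene length and by library size, so each is a level relative to the rest of its library and, within limits, can be set beside that of another gene. The depth was estimated at 33.9 to 61.7 M reads per library, which does not limit the 81 tested members. The knockout label was checked on Dlx3 itself, which was at 11.2 and 11.0 RPKM in WT basal, 2.35 and 2.16 in KO basal, 7.87 and 6.92 in WT suprabasal and 2.64 and 2.24 in KO suprabasal libraries. The genotypes did not overlap. The basal keratin Krt5 was lower in every suprabasal library than in every basal library of its table, and Krt1 was higher. The 2 libraries of a Dlx3 group differed by a median of 1.80% to 3.14% over the members, whereas pairs of Fvb/N libraries of 1 fraction differed by 6.25% to 69.9%. The sample labels give Fvb/N replicates 1 and 2 an earlier run code and replicates 3 and 4 a later one. A file header instead splits the codes by fraction, and if it is right, run and fraction cannot be told apart in Fvb/N. The values by run code below follow the labels.

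The start-site sequences of members at the extremes of the results are shown because the TOP motif described above is known from the starts of such messages. RefSeq start-site windows (build GRCm38.p6, 250 bases before the start and 50 after it) were found for 64 of the 85 members. Each line below gives 60 bases before the annotated start and 15 from it, 5′ to 3′ on the gene's own strand, for members with 1 RefSeq window. Capitals mark the longest run of C and T that touches the 5 bases on either side of the start, where it has at least 5 bases.
Rpl35 (chr2:39005117-39005191, minus strand): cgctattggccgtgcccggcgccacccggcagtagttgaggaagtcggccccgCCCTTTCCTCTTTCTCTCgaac
Rpl27 (chr11:101442185-101442259, plus strand): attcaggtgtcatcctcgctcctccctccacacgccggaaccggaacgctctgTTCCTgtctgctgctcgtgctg
Rps28 (chr17:33824548-33824622, minus strand): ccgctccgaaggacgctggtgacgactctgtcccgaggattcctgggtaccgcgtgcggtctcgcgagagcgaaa
Rpl18 (chr7:45718011-45718085, plus strand): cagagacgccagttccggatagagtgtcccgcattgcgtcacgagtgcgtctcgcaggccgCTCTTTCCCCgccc
Rplp0 (chr5:115559407-115559481, plus strand): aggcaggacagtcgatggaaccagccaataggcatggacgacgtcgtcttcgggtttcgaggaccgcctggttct
Rps2 (chr17:24720003-24720077, plus strand): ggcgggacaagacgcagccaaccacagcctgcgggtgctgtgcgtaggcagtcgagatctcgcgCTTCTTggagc
Rpl22l1 (chr3:28805448-28805522, plus strand): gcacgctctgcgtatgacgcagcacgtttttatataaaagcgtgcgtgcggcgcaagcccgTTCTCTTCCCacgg
Rpl38 (chr11:114668520-114668594, plus strand): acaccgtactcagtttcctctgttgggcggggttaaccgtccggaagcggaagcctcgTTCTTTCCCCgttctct
Among the members printed here, Rpl35, Rpl27 and Rps28 had the largest falls between the WT fractions and Rpl18, Rplp0 and Rps2 the smallest. Rpl22l1 and Rpl38 had the largest positive changes in Fvb/N among those printed. They were chosen from a part of the members only. Rps14 and Rpl32 fell further in WT and Rplp1 had a larger positive change in Fvb/N, and none of these is printed. Rpl35 carries a run of 18 pyrimidines from base −7, and Rpl18, Rpl22l1 and Rpl38 carry runs of 10. Rps28 and Rplp0 have none of 5 bases near the annotated start. A run of at least 8 pyrimidines near the start, by the same rule, was found in 25 of the 64 members (39.1%). It was found in 11% of the 27025 genes with a window. The letters CTTCCG, read on both strands over the whole window, were found in 42 of the 64 (65.6%) and in 18.8% of all genes. TCTCGCG was found in 14 (21.9%) against 2.92%, and TATAAA in 8 (12.5%) against 15.7%. These are matches of letters in a window, not sites. Both among the large and among the small falls printed here, some members have a run of at least 5 pyrimidines near the start and some do not. The run of Rpl27 has 5 bases from base −7 and ends before the annotated start. A run near the annotated start therefore need not lie in the message.

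A share of summed RPKM is not a share of reads, because RPKM are divided by gene length. The members together held a large part of each library's summed RPKM. Their share of the summed RPKM was 16.9% and 17.1% in the WT basal libraries, 11.2% and 11.3% in WT suprabasal, 16.8% and 17.0% in KO basal, and 11.8% and 11.8% in KO suprabasal. Both genotypes had the higher share in basal cells, with no overlap between fractions. In Fvb/N the share was 9.98%, 10.7%, 13.8% and 15.5% in the basal libraries and 13.1%, 14.5%, 11.5% and 13.3% in the suprabasal ones, each in the order of the replicates. These groups overlapped, with means of 12.5% ± 2.60 (SD, n = 4) and 13.1% ± 1.23 (SD, n = 4). The libraries of the earlier run code had the lower share in basal cells, and those of the later code the higher. In bulk libraries, fewer cells of a type and less RNA per cell cannot be told apart.

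**Figure D1:**
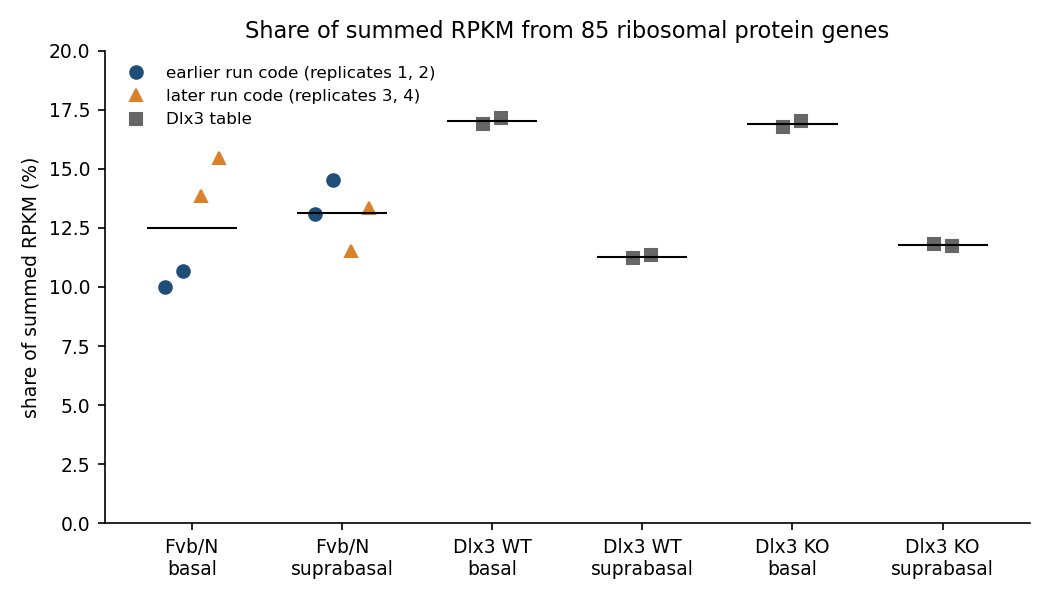
Share of each library's summed RPKM that falls on the 85 ribosomal protein genes (y axis, percent) for the 6 groups (x axis). Points are libraries and lines are group means; the Dlx3 basal libraries lie between 16.8% and 17.1% and the Dlx3 suprabasal libraries between 11.2% and 11.8%, while the Fvb/N fractions overlap.

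Krt1 and Krt10 messages take up a part of the total that changes with the fraction. They held 1.01% and 0.996% of the summed RPKM in WT basal and 14.3% and 14.3% in WT suprabasal libraries. In Fvb/N basal libraries they held 10.7%, 11.8%, 1.68% and 1.83%, so libraries 1 and 2 were far above libraries 3 and 4. Fvb/N suprabasal libraries were at 23.2%, 22.5%, 15.4% and 20.7%. With both keratins left out of the total, the members' share was 17.1% and 17.3% in WT basal, 13.1% and 13.2% in WT suprabasal, 17.0% and 17.3% in KO basal, and 13.9% and 13.8% in KO suprabasal. The Dlx3 fractions stayed apart. In Fvb/N it became 11.2%, 12.1%, 14.1% and 15.8% in basal and 17.0%, 18.8%, 13.6% and 16.8% in suprabasal libraries, which still overlapped through basal libraries 3 and 4 and suprabasal library 3.

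The levels of single members spread widely, although most of the proteins are needed in equal numbers. In WT basal cells the 81 tested members had a median of 695 RPKM and ranged from 33.1 for Rpl30 to 1604 for Rplp0. The quartiles were 474 and 1045 RPKM. Behind Rplp0 came Rps2 (1603), Rplp1 (1533), Rpl41 (1457) and Rps3a1 (1423), and the first 2 do not differ beyond the spread of their 2 libraries. At the low end, Rpl30 was followed by Rpl7l1 (39.6), Rps4l (43.8), Rps15a (60.8), Rps27l (75.2) and Rpl26 (96.2 RPKM). RPKM are divided by gene length. The GENCODE transcripts used here had 5179 bases for Rps15a and 2606 for Rpl7l1, but 886 for Rpl30, 943 for Rps4l, 606 for Rpl26 and 499 for Rps27l. The part of length in these levels was not tested. Many members have processed pseudogenes of near-identical sequence, and how reads with several possible positions were counted is not given in the sources used here, so levels of single members are uncertain. In the GENCODE transcripts of build GRCm38, a median of 49.4% of a member's 50-base words also occur in other genes, among them 79.2% for Rpl30 and 61.0% for Rpl26. Over the 81 members the level in WT basal cells and this share had a Spearman rho of 0.16.

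The 4 members below the level for a test had low values in every group. Rpl10l, a testis paralog of Rpl10 in the mouse, was at 0 in all 16 libraries. Rpl3l, a paralog of Rpl3 in striated muscle, reached 0.0804 RPKM, and Rpl39l, a testis paralog of Rpl39, reached 0.341 RPKM. Rpl32l lay between 0.167 and 1.06 RPKM.

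Between the fractions of Dlx3 WT epidermis, all 81 tested members fell from basal to suprabasal cells (limma, adjusted p under 0.05 over 12146 genes). Their median log2 fold change was −0.83, a level of 0.561 times that in basal cells, and single members ranged from −1.05 to −0.30. Of all genes tested, 70.4% were called lower and 19.2% higher, with a median of −0.40, so the members fell by more than the typical gene in these libraries. In the deposited RPKM every member was lower in both suprabasal libraries than in both basal libraries, against 73.2% of all genes. The 48 large-subunit members had a median of −0.80 and the 33 small-subunit members of −0.88. Markers of other cells moved between these libraries too: erythroid markers (5 genes) summed to 68.4 to 75.6 RPKM in basal and 0.832 to 1.10 in suprabasal libraries, fibroblast markers (6 genes) to 135 to 138 and 44.6 to 45.9, melanocyte markers (5 genes) to 84.5 to 84.6 and 57.6 to 57.6, and Langerhans and myeloid markers (5 genes) to 96.5 to 101 and 81.4 to 82.9. Their part in the result was not tested.

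Rpl32, a large-subunit protein, had 1153 and 1188 RPKM in the basal WT libraries and 580.3 and 574 RPKM in the suprabasal ones. It fell by 1.02 ± 0.02 (SE, adjusted p = 5.84e-10) on the log2 scale. Rpl35, whose start-site run of 18 pyrimidines is printed above, went from 820.3 and 828 to 397 and 419.6 RPKM, a log2 change of −1.01 ± 0.03 (SE, adjusted p = 1.47e-09). Neither gene's basal and suprabasal libraries overlapped. Rps14, a small-subunit protein, changed by −1.05 ± 0.03 (SE, adjusted p = 1.81e-09), and Rpl27, of the large subunit, by −0.98 ± 0.03 (SE, adjusted p = 3.33e-09). Rps23, a protein of the decoding centre, had the smallest p, with 1126 and 1154 RPKM in basal and 602 and 599.9 in suprabasal libraries and a log2 change of −0.92 ± 0.02 (SE, adjusted p = 4.28e-10). At the other end, Rpl18 of the large subunit was at 867 and 924 RPKM in basal and 730.2 and 725 in suprabasal libraries. Its log2 change of −0.30 ± 0.03 (SE, adjusted p = 1.72e-05) was the smallest fall. The next smallest were Rplp0 (−0.52 ± 0.03), Rplp1 (−0.52 ± 0.03) and Rps2 (−0.54 ± 0.04, SE).

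RPKM are relative values, so the libraries were also rescaled by the median ratio of their genes, which moved the median change of all genes from −0.40 to −0.00. The members' median was then −0.35, and 76 of 81 were called lower against 39.2% of all genes, with 40.3% of all genes called higher. All 76 were among the 81 called as deposited. Rpl18 turned, with 729 and 774 rescaled RPKM in basal and 858 and 849.5 in suprabasal libraries, and was called higher by 0.19 ± 0.03 (SE, adjusted p = 0.000352). Rplp0 (−0.03 ± 0.03, SE, adjusted p = 0.28), Rplp1 (−0.04 ± 0.03), Rps2 (−0.05 ± 0.04) and Rpl30 (−0.07 ± 0.05, SE) were no longer called. With quantile normalization 77 were called lower and Rpl18 higher, with a median of −0.28, against 52.5% and 30.8% of all genes.

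Dlx3 KO epidermis gave the same direction. All 81 members fell from basal to suprabasal cells, and their median change was −0.65 on the log2 scale (0.638 times the basal level). Single members ranged from −0.87 to −0.08. Of all genes tested 69.7% were called lower and 19.9% higher, with a median of −0.39. Rpl32 was at 1160.2 and 1198 RPKM in basal and 648 and 639 RPKM in suprabasal KO libraries and had the largest fall, −0.87 ± 0.02 (SE, adjusted p = 1.58e-09). Rpl26 (−0.85 ± 0.04, SE, adjusted p = 2.68e-08), Rps28 (−0.84 ± 0.04, SE, adjusted p = 5.91e-08) and Rpl10 (−0.83 ± 0.03, SE, adjusted p = 8.28e-09) followed, and Rpl22 had the smallest p (−0.77 ± 0.02, SE, adjusted p = 1.1e-09). Rpl18 was at 875 and 917 RPKM in basal and 853 and 845 in suprabasal libraries. The Rpl18 libraries do not overlap between fractions, but the change was small, −0.08 ± 0.03 (SE, adjusted p = 0.0498). Erythroid markers (5 genes) summed to 31.8 to 32.3 RPKM in basal and 0.764 to 1.08 in suprabasal KO libraries, fibroblast markers (6 genes) to 121 to 127 and 60.7 to 62.5, melanocyte markers (5 genes) to 95.4 to 97.9 and 88.9 to 89.4, and Langerhans and myeloid markers (5 genes) to 95.3 to 98.5 and 117 to 119. Their part in the result was not tested.

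After rescaling the KO fractions, 63 members were called lower against 38.7% of all genes, with a median of −0.18, and all 63 were among those called as deposited. The 7 members called higher were Rpl10a, Rpl11, Rpl18, Rplp0, Rplp1, Rps15 and Rps2, against 39.8% of all genes called higher. Quantile normalization gave 74 lower, and Rpl10a, Rpl18 and Rps15 higher, with a median of −0.31, against 53.8% and 29.4% of all genes. The WT and KO fractions share no library, and over the 81 members their changes had a Spearman rho of 0.89 and a Pearson r of 0.91, members being described here and not tested as independent units.

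**Figure D2:**
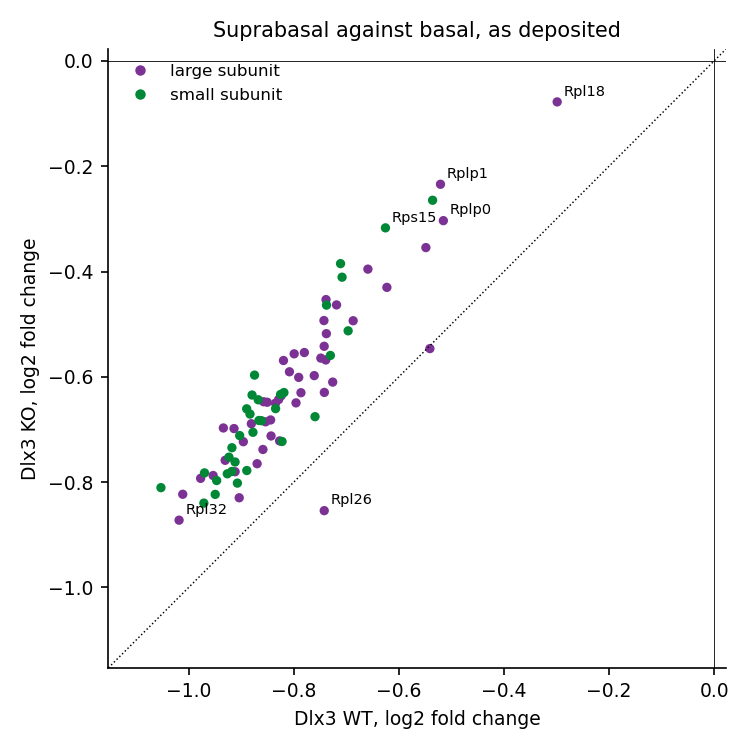
Log2 fold change of suprabasal against basal cells as deposited, in Dlx3 WT (x axis) and Dlx3 KO (y axis), one point for each of 81 ribosomal protein genes, coloured by subunit; the dotted line marks equal change. Nearly all points lie above the line, the falls in KO being smaller; Rpl26 lies below the line and Rpl30 on it, and Rpl18 is nearest to 0.

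In basal cells the Dlx3 genotype gave no called difference among the members. None of the 81 was called (limma), with 9 at an unadjusted p under 0.05 and a median log2 fold change of −0.03 for KO against WT. Of all genes 4.23% were called higher and 2.98% lower. The members ranged from −0.16 to 0.07, and in the deposited RPKM 25 were lower in KO without overlap, against 33% of all genes, and 1 was higher, against 18.7%. Without KO basal library 2, 3 members were called lower. Rps4l, annotated by GENCODE as a transcribed processed pseudogene, measured 42.1 and 45.4 RPKM for WT and 37.4 and 40.9 RPKM for KO in basal libraries, without overlap, and its change of −0.16 ± 0.05 (SE, adjusted p = 0.0829) had the smallest p. Rpl22l1 (−0.10 ± 0.03) and Rps27l (−0.08 ± 0.04, SE) were the next lowest. The highest were Rpl26 (0.07 ± 0.04), Rplp0 (0.03 ± 0.03), Rpl30 (0.02 ± 0.05) and Rpl35a (0.02 ± 0.02, SE). The members named in every comparison lay between −0.16 and 0.03. Rescaling and quantile normalization also gave no called member, with 4 and 7 at an unadjusted p under 0.05. After rescaling 4.82% of all genes were called higher and 1.77% lower, and with quantile normalization 4.51% and 1.98%.

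In suprabasal cells 71 of the 81 members were higher in KO than in WT and none was lower (limma), against 21.6% of all genes called higher and 15.7% lower. The differences were small, with a median log2 fold change of 0.16 (1.12-fold) and a range from −0.04 to 0.28. Rps15, a small-subunit protein, measured 535 and 529 RPKM for WT and 652 and 641 RPKM for KO in suprabasal libraries, a rise of 0.28 ± 0.02 (SE, adjusted p = 5.87e-05). Rpl37a, of the large subunit, went from 370.3 and 375 to 454 and 447 RPKM, a rise of 0.27 ± 0.02 (SE, adjusted p = 5.22e-05) with the smallest p. Neither gene's WT and KO libraries overlapped. Rps29 (0.27 ± 0.02, SE, adjusted p = 7.17e-05) and Rplp1 (0.27 ± 0.03, SE, adjusted p = 0.000543) rose as much. In all, 77 of the 81 members did not overlap between the genotypes and were higher in KO, against 37.4% of all genes. Rpl26 (−0.04 ± 0.04, SE, adjusted p = 0.391) and Rps27l (−0.00 ± 0.04, SE, adjusted p = 0.989) were the only members below 0.

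The genotype difference was not kept under quantile normalization. Median-ratio rescaling could hardly move it, with factors of 0.851 and 0.853 in WT and 0.844 and 0.848 in KO suprabasal libraries. Median-ratio rescaling left 72 members called higher, including the 71, against 24% of all genes (15.1% lower). Quantile normalization, which forces the libraries of a table to 1 distribution, left 8 higher and 12 lower with a median of 0, against 15.8% and 19.3% of all genes. The 8 included Rpl37a, Rplp1, Rps14, Rps15, Rps20, Rps29 and Rpsa, and the 12 included Rpl3, Rpl5, Rpl10, Rpl22 and Rpl24. Other values moved with the genotype in these libraries. The 7 suprabasal keratinocyte markers summed to 46769 and 47081 RPKM in WT and to 54180 and 54501 in KO suprabasal libraries. Melanocyte markers (5 genes) summed to 57.6 and 57.6 in WT and to 88.9 and 89.4 in KO, Langerhans and myeloid markers (5 genes) to 81.4 to 82.9 and 117 to 119, and fibroblast markers (6 genes) to 44.6 to 45.9 and 60.7 to 62.5. Basal keratinocyte markers (7 genes) summed to 8341 to 8430 in WT and to 7540.1 to 7625 in KO. No marker of these lists was at 0 in every suprabasal library of a genotype. Their part in the result was not tested.

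The change between fractions itself differed between genotypes. The interaction, KO fraction change minus WT fraction change, was called higher for 71 of 81 members and lower for none (limma), against 14.4% and 8.08% of all genes, with a median of 0.19 on the log2 scale. It draws on the same libraries as the comparisons above. Rps4l had the largest value, 0.33 ± 0.06 (SE, adjusted p = 0.0089), followed by Rps15 (0.31 ± 0.03, SE, adjusted p = 0.000601, the smallest p), Rpsa (0.30 ± 0.04, SE, adjusted p = 0.00161) and Rplp1 (0.29 ± 0.05, SE, adjusted p = 0.00492). Rpl26 (−0.11 ± 0.05, SE, adjusted p = 0.165) and Rpl30 (−0.01 ± 0.07, SE, adjusted p = 0.963) were the only members below 0. Rescaling, with factors that differed little between the genotypes of a fraction, left 70 called higher, against 13.5% of all genes (9.25% lower). Quantile normalization left 6 higher (Rps14, Rps15, Rps21, Rps29, Rps4l and Rpsa) and 5 lower (Rpl3, Rpl6, Rpl10, Rpl24 and Rpl26), against 8.46% and 11.3%. Without a filter on low values 28 were called, and the share of all genes called in that fit is not given here. Leaving out 1 library at a time gave 43 to 71, the fewest without WT suprabasal library 1.

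Fvb/N epidermis did not repeat the fall seen in the Dlx3 table. The fractions of the 2 tables also differed in their markers. Basal keratinocyte markers (7 genes) summed to 14258 to 17493 RPKM in Fvb/N basal and 736 to 4055 in Fvb/N suprabasal libraries. The same sums were 16440 to 16847.5 and 8341 to 8430 in WT, and 16814 to 16932 and 7540.1 to 7625 in KO. The part of this difference in the result was not tested. As deposited, 1 of 81 members was called higher in suprabasal than in basal cells and none lower (limma), with 3 at an unadjusted p under 0.05, against 13.4% and 60.6% of all 11608 genes tested. The members' median log2 fold change was 0.22, that of all genes −0.55, and 66 of 81 members were above 0. No member separated the 4 basal from the 4 suprabasal libraries, against 10.9% of all genes higher and 56.1% lower. Rpl22l1, a paralog of Rpl22, was the called gene. Basal libraries 1 to 4 held 44.9, 77.5, 82.2 and 106 RPKM of it and suprabasal libraries 1 to 4 held 133, 159.7, 86.7 and 125 RPKM, a rise of 0.72 ± 0.27 (SE, adjusted p = 0.0372). The groups overlap through suprabasal library 3 and basal library 4, and with no filter on low values no member was called. Rplp1 had the largest change, from 1098, 1177, 1134 and 1322 RPKM in basal to 2781, 3399, 1086 and 2173 RPKM in suprabasal libraries, 0.88 ± 0.36 (SE, adjusted p = 0.0513). Suprabasal library 3 lay below all basal libraries and the other 3 suprabasal libraries above them. Rpl38 (0.65 ± 0.28, SE, adjusted p = 0.0596) and Rpl26 (0.56 ± 0.27, SE, adjusted p = 0.0836) followed. The lowest values were those of Rpl4 (−0.27 ± 0.22, SE, adjusted p = 0.287), Rpl7l1 (−0.21 ± 0.12), Rps3 (−0.16 ± 0.21) and Rpl3 (−0.14 ± 0.21, SE). With the replicate number as a block, Rpl38 was also called (adjusted p = 0.0419). Without basal library 4, 2 members were called higher, without suprabasal library 3, 14, and without any other single library, 0.

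The Fvb/N result depended on the scaling. Median-ratio rescaling, with factors from 0.741 to 1.37 per library, moved the median of all genes from −0.55 to 0.02 and that of the members to 0.90. Then 65 of 81 members were called higher and none lower, against 33.1% and 34% of all genes, and all 81 were above 0. With the replicate number as a block 55 were called higher, and the share of all genes called with this block is not given here. Rplp1 was at 916, 977, 856 and 963 rescaled RPKM in basal and 3634, 4555, 1161 and 2933 in suprabasal libraries, and with every suprabasal library above every basal one it rose by 1.56 ± 0.42 (SE, adjusted p = 0.0103). Rpl22l1 (1.40 ± 0.30, SE, adjusted p = 0.00322) and Rpl38 (1.33 ± 0.34, SE, adjusted p = 0.00781) followed, and Rpl4 (0.41 ± 0.23, SE, adjusted p = 0.131) was lowest. Leaving out 1 library at a time moved this count between 31 and 81. It fell to 34 and 36 without basal library 1 or 2, and to 31, 32 and 36 without suprabasal library 1, 2 or 4. Without suprabasal library 3 it was 81. Quantile normalization called 5 higher (Rpl22l1, Rpl26, Rpl30, Rpl38 and Rps4l) and Rpl4 lower, with a median of 0.08, against 31.2% and 34.1% of all genes.

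**Figure D3:**
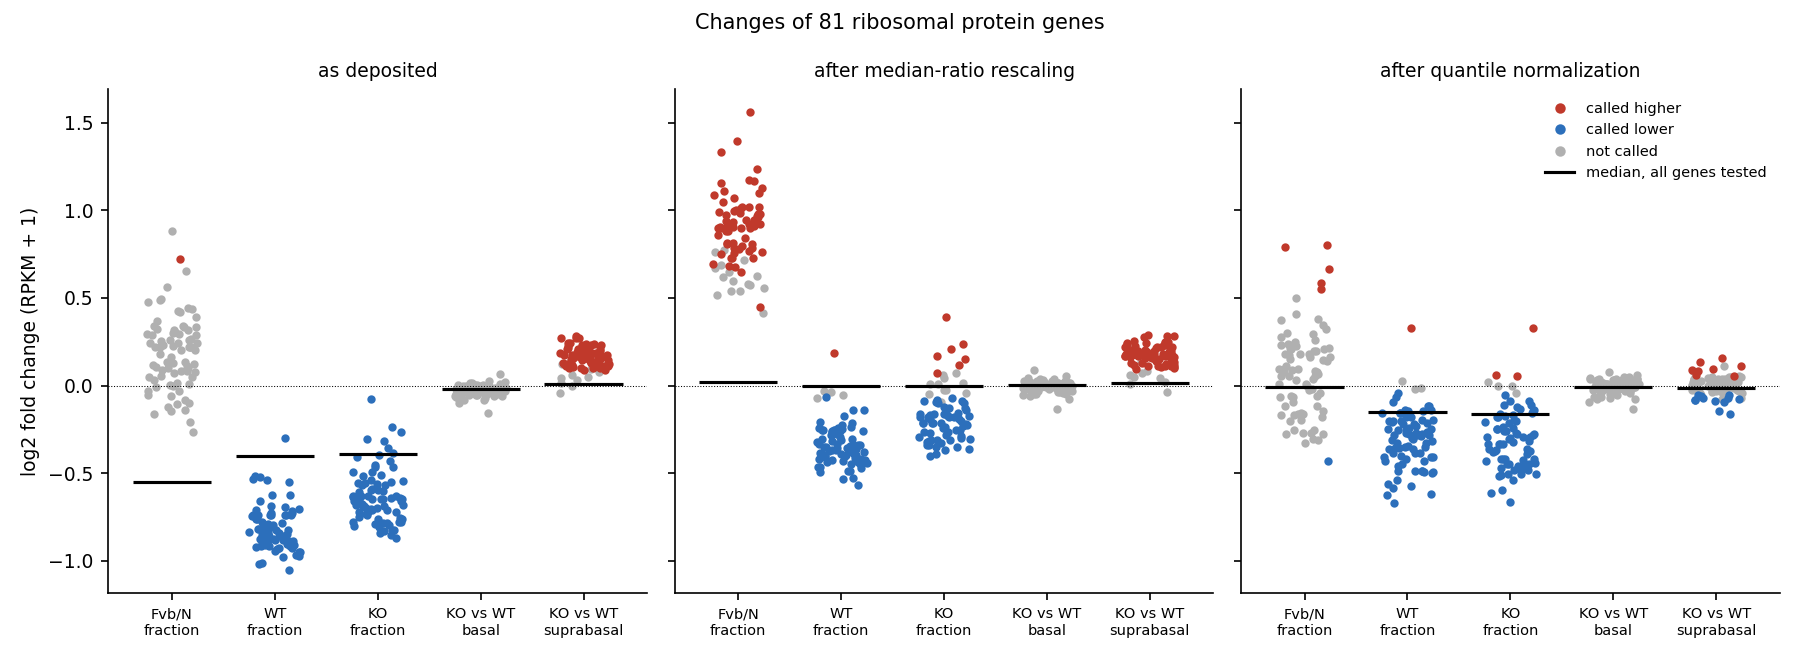
Log2 fold change on the log2(RPKM + 1) scale (y axis) of 81 ribosomal protein genes in 5 comparisons (x axis; fraction means suprabasal against basal), as deposited, after median-ratio rescaling and after quantile normalization. Points are genes, coloured by limma call, and black lines are the median of all genes tested; the Fvb/N points lie above that line and most WT and KO fraction points below it as deposited and after rescaling.

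In Fvb/N the median change had opposite signs in the 2 run codes. Within the earlier code (replicates 1 and 2) 72 of 81 members were higher in suprabasal cells, against 19.5% of all genes, with a median of 0.68. Within the later code (replicates 3 and 4) none was called (0 at an unadjusted p under 0.05), 74 of 81 were below 0 and the median was −0.31, with 10% of all genes called higher and 46.6% lower. Rplp1 changed by 1.43 ± 0.16 (SE, adjusted p = 1.63e-05) in the earlier and by 0.33 ± 0.45 (SE, adjusted p = 0.552) in the later code. Rps6 changed by 0.39 ± 0.13 (SE, adjusted p = 0.0197) and −0.50 ± 0.28 (SE, adjusted p = 0.166). After rescaling, all 81 rose within the earlier code, with a median of 1.34, against 39.9% of all genes called higher and 40% lower. In the later code 1 was called and the median was 0.39, against 18.6% of all genes called higher and 21.7% lower. The order of the members was partly shared, with a Spearman rho of 0.52 between the codes.

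The difference between run codes was also tested as an interaction. No member was called (limma, as deposited and after rescaling). All 81 lay below 0 with a median of −0.97, and 67 were at an unadjusted p under 0.05. The same counts over all genes are not given here, so these do not set the members apart. Of all genes 0.37% were called higher and 0.00861% lower. Rpl34, of the large subunit, had the lowest value, −1.57 ± 0.30 (SE, adjusted p = 0.0924), from basal levels of 68.2, 46.9, 141 and 161 RPKM and suprabasal levels of 109.9, 136, 97.3 and 121 RPKM. Its 2 basal libraries of the earlier code were below every other Fvb/N library. Rpl17 (−1.55 ± 0.30), Rpl32 (−1.38 ± 0.35) and Rpl26 (−1.35 ± 0.28, SE) followed. In basal cells 10 members were higher in the later than in the earlier code, against 4.58% of all genes (4.62% lower), with a median of 0.55. Rpl34 (1.40 ± 0.21, SE, adjusted p = 0.00898), Rpl17 (1.23 ± 0.22, SE, adjusted p = 0.0143) and Rps7 (1.04 ± 0.21, SE, adjusted p = 0.0236) were among those called. Rps29 (−0.18 ± 0.24), Rpl30 (−0.05 ± 0.16) and Rpl18 (−0.04 ± 0.21, SE) were the only members below 0 there. In suprabasal cells none was called, with 17 whose unadjusted p was under 0.05, against 1.72% higher and 0.629% lower, with a median of −0.40. Rplp1, at 2781, 3399, 1086 and 2173 RPKM in libraries 1 to 4, had the lowest value (adjusted p = 0.112), followed by Rpl38 (−0.92 ± 0.24, SE, adjusted p = 0.0777), Rpl37a (−0.87 ± 0.26, SE, adjusted p = 0.0946) and Rps21 (−0.83 ± 0.24, SE, adjusted p = 0.0868). After rescaling, 1 member was higher in the later code in basal cells, against 1.78% of all genes higher and 4.44% lower, and in suprabasal cells none was called, with 8 whose unadjusted p was under 0.05, against 6.67% and 1.99%. The interaction after rescaling had 26 members at an unadjusted p under 0.05, with 0.284% of all genes called higher and 0% lower.

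Markers of the other fraction moved with the run code as well. Krt1 was at 14396, 17278, 2286 and 2667 RPKM in Fvb/N basal libraries 1 to 4, so the earlier-code libraries were higher than the later-code ones. Krt5 was at 166, 164, 1701 and 448 RPKM in suprabasal libraries 1 to 4, highest in library 3, the one with the lowest share of the members. Erythroid markers (5 genes) summed to between 3.19 and 304 RPKM in basal and between 7.12 and 25.8 in suprabasal libraries. Melanocyte markers (5 genes) summed to 86.5 to 151 in basal and 12.9 to 28.3 in suprabasal libraries, and Langerhans and myeloid markers (5 genes) to 104 to 271 and 7.69 to 46.5. The part of these values in the members' change was not tested.

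**Figure D4:**
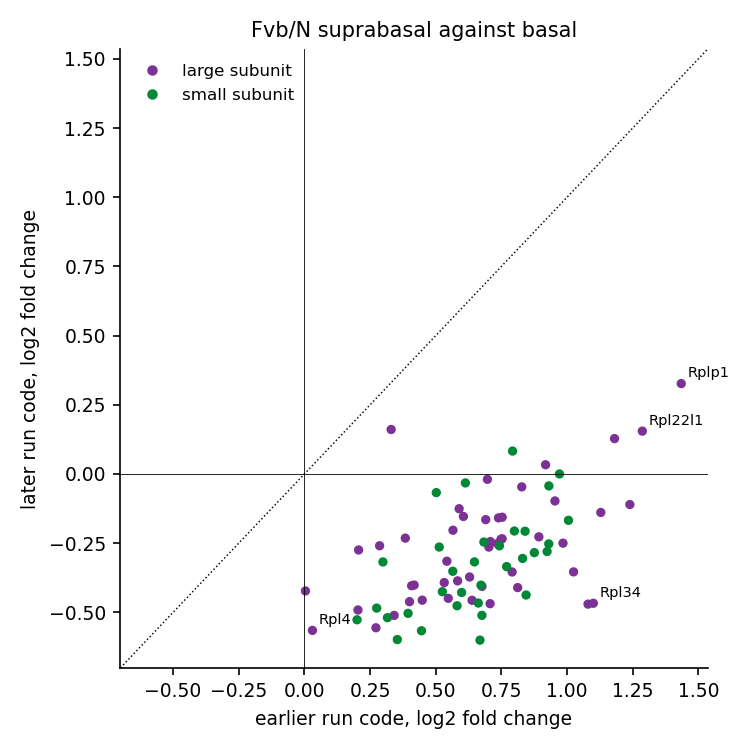
Log2 fold change of Fvb/N suprabasal against basal cells in the libraries of the earlier run code (x axis) and of the later one (y axis), one point for each of 81 ribosomal protein genes, coloured by subunit; the dotted line marks equal change. All points lie right of 0 on the x axis, and 74 lie below 0 on the y axis.

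Among the stalk proteins, which recruit the GTPases of translation to the large subunit, Rplp0 and Rplp1 fell least in the Dlx3 fractions. Rplp0 was at 1574 and 1634 RPKM in WT basal, 1116 and 1127 in WT suprabasal, 1598 and 1675 in KO basal and 1333 and 1317 in KO suprabasal libraries. It fell in both genotypes, by 0.52 ± 0.03 (SE, adjusted p = 1.13e-07) in WT and 0.30 ± 0.03 (SE, adjusted p = 5.17e-06) in KO on the log2 scale. Rplp1 went from 1499.8 and 1565 RPKM in basal to 1062 and 1074 in suprabasal WT libraries, and from 1468 and 1560.5 to 1309.6 and 1264 in KO. For both genes the fractions of a genotype did not overlap. The Rplp1 fall in KO was −0.23 ± 0.03 (SE, adjusted p = 0.000126). After rescaling both turned in KO, to 0.17 ± 0.03 and 0.24 ± 0.03 (SE), and both were called higher. Rplp2 fell by 0.80 ± 0.03 in WT and 0.56 ± 0.03 (SE) in KO and was higher in KO suprabasal cells by 0.24 ± 0.03 (SE, adjusted p = 0.000546). Rplp0 rose by 0.24 ± 0.03 (SE, adjusted p = 0.000383) in KO against WT suprabasal cells. In Fvb/N neither Rplp0 (0.01 ± 0.25, SE, adjusted p = 0.979) nor Rplp2 (0.23 ± 0.26, SE, adjusted p = 0.442) was called.

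Rps6, the small-subunit protein phosphorylated by the S6 kinases downstream of mTOR, was at 637 and 653 RPKM in WT basal and 351 and 355 in WT suprabasal libraries. In KO it went from 614 and 630.0 to 399 and 396 RPKM, and it fell by 0.87 ± 0.02 (SE, adjusted p = 8.4e-10) in WT and 0.64 ± 0.02 (SE, adjusted p = 5.85e-09) in KO. The Fvb/N libraries overlapped, with 319.9, 376, 487 and 603 RPKM in basal and 425, 490.5, 341 and 428 in suprabasal cells, −0.05 ± 0.23 (SE, adjusted p = 0.843). In KO suprabasal cells it was higher than in WT by 0.17 ± 0.02 (SE, adjusted p = 0.000632). Rpsa, a small-subunit protein also known as a laminin receptor, changed by −0.71 ± 0.03 in WT, −0.41 ± 0.03 in KO and 0.05 ± 0.24 (SE) in Fvb/N, and was higher in KO suprabasal cells by 0.24 ± 0.03 (SE, adjusted p = 0.000337).

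**Figure D5:**
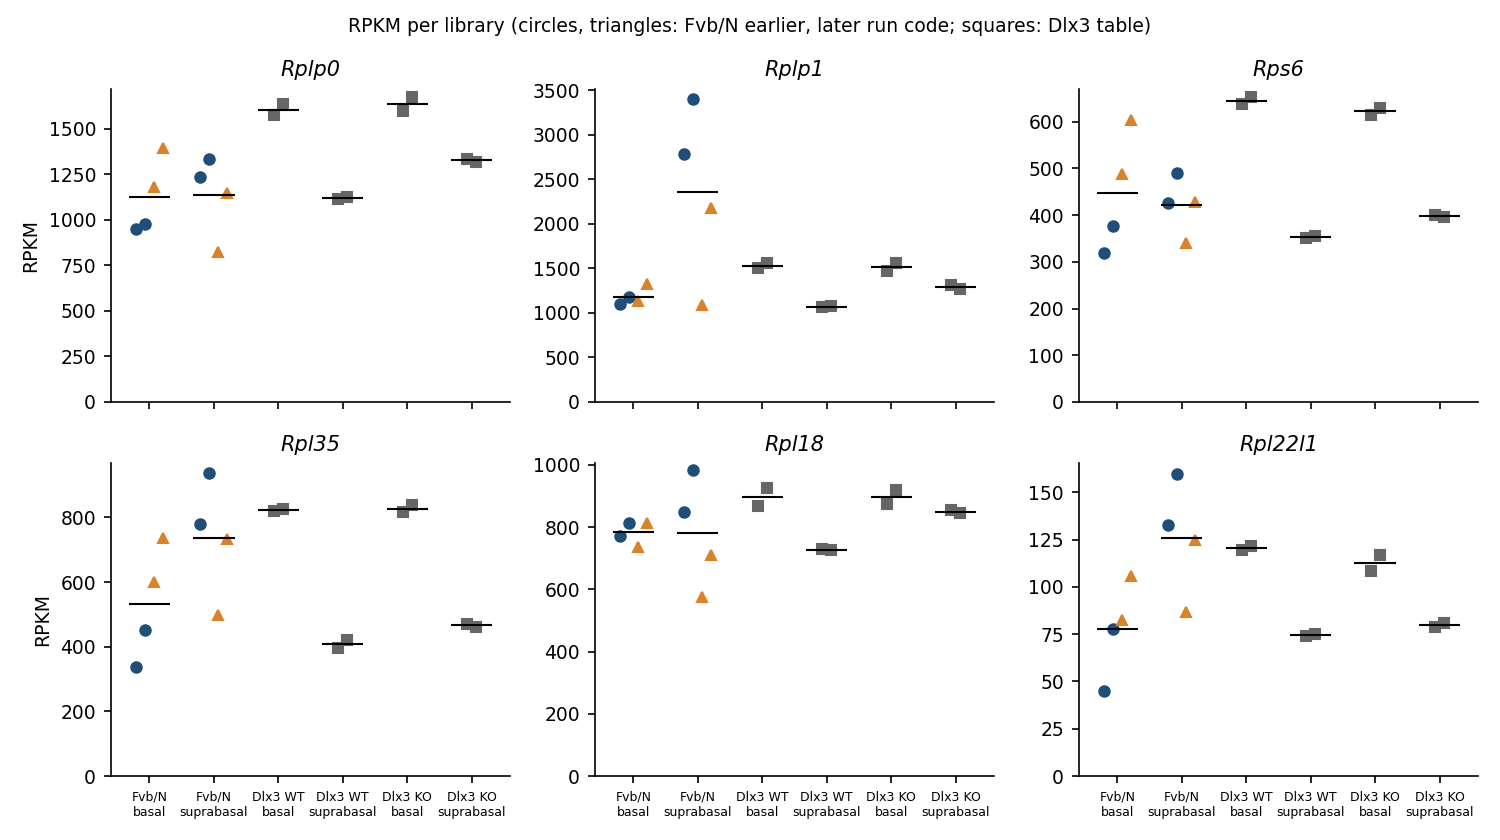
RPKM of 6 ribosomal protein genes (y axis, from 0) in the 6 groups (x axis). Points are libraries and lines group means; the Dlx3 libraries of a group nearly coincide and lie lower in suprabasal cells, while the Fvb/N libraries, with the earlier run code as circles and the later one as triangles, spread more widely.

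Mutations of some members have known effects in the mouse. Rps19 and Rps20 mutations darken the skin through Trp53 in keratinocytes. Rps19 changed by −0.88 ± 0.03 (SE, adjusted p = 6.18e-09) in WT, −0.67 ± 0.03 (SE, adjusted p = 3.97e-08) in KO and 0.26 ± 0.25 (SE, adjusted p = 0.367) in Fvb/N. Rps20 was at 158 and 164 RPKM in WT basal and 85.8 and 88.0 in WT suprabasal libraries, −0.88 ± 0.03 (SE, adjusted p = 2.77e-09), and it changed by −0.63 ± 0.03 (SE, adjusted p = 2.43e-08) in KO and 0.16 ± 0.22 (SE, adjusted p = 0.517) in Fvb/N. Both rose in KO against WT suprabasal cells, by 0.22 ± 0.03 and 0.21 ± 0.03 (SE). Rpl5 and Rpl11, which hold Mdm2 when ribosome assembly fails, changed in WT by −0.80 ± 0.03 and −0.66 ± 0.02, in KO by −0.65 ± 0.03 and −0.40 ± 0.02, and in Fvb/N by 0.13 ± 0.26 and 0.34 ± 0.21 (SE); both Dlx3 falls were called and the Fvb/N values were not. Rpl11 turned to 0.07 ± 0.02 (SE, adjusted p = 0.0103) in KO after rescaling. Both rose in KO suprabasal cells, Rpl5 by 0.11 ± 0.03 and Rpl11 by 0.21 ± 0.02 (SE). Rpl24, mutated in the Belly spot and tail mouse, changed by −0.86 ± 0.03 (SE, adjusted p = 4.99e-09) in WT, −0.74 ± 0.03 (SE, adjusted p = 1.46e-08) in KO and 0.12 ± 0.26 (SE, adjusted p = 0.696) in Fvb/N. Rpl38, mutated in the Tail-short mouse, went from 244 and 251 RPKM in basal to 144 and 147 in suprabasal WT libraries, −0.76 ± 0.03 (SE, adjusted p = 1.15e-08), and changed by −0.60 ± 0.03 (SE, adjusted p = 5.99e-08) in KO. Its Fvb/N libraries were at 155, 172, 171 and 186 RPKM in basal and 329, 418, 152 and 250.2 in suprabasal cells, with suprabasal library 3 below all 4 basal libraries.

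Both genes of each tested paralog pair fell in the WT and in the KO fractions. Rpl22 was at 116 and 115 RPKM in WT basal and 63.0 and 62.9 in WT suprabasal libraries, and Rpl22l1 went from 119 and 122 to 74.3 and 74.9. They fell by 0.87 ± 0.02 and 0.69 ± 0.03 in WT and by 0.77 ± 0.02 and 0.49 ± 0.03 in KO (SE). In Fvb/N Rpl22 changed by 0.11 ± 0.22 (SE, adjusted p = 0.651), while Rpl22l1 was the called member. Rps27 and Rps27l fell by 0.89 ± 0.04 and 0.76 ± 0.04 in WT and by 0.66 ± 0.04 and 0.68 ± 0.04 in KO (SE). Between genotypes in suprabasal cells Rps27 rose by 0.23 ± 0.04 (SE, adjusted p = 0.00246) and Rps27l did not pass (−0.00 ± 0.04, SE, adjusted p = 0.989). In Fvb/N they changed by 0.05 ± 0.24 and 0.30 ± 0.24 (SE). Rpl7, at 905 and 924 RPKM in WT basal libraries, and Rpl7l1, at 39.1 and 40.1, fell by 0.72 ± 0.03 and 0.83 ± 0.03 in WT and by 0.46 ± 0.03 and 0.72 ± 0.03 in KO (SE). Rps4x, the X-linked gene, and the annotated pseudogene Rps4l fell by 0.90 ± 0.02 and 0.71 ± 0.05 in WT and by 0.71 ± 0.02 and 0.38 ± 0.05 in KO (SE). In Fvb/N Rpl7 was at 0.05 ± 0.24, Rps4x at −0.12 ± 0.24 and Rps4l at 0.44 ± 0.24 (SE), none of them called.

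Rpl3, Rpl10 and Rpl39, whose paralogs were at or near 0, changed in WT by −0.74 ± 0.02, −0.90 ± 0.03 and −0.91 ± 0.03 and in KO by −0.63 ± 0.02, −0.83 ± 0.03 and −0.70 ± 0.03 (SE). All of these changes were called. Rpl10 measured 426 and 439 RPKM for WT and 436 and 449 RPKM for KO in suprabasal libraries, 0.03 ± 0.03 (SE, adjusted p = 0.414), and was not called there. Rpl3 (0.10 ± 0.02, SE, adjusted p = 0.00687) and Rpl39 (0.20 ± 0.03, SE, adjusted p = 0.000858) were. In Fvb/N Rpl10 (−0.00 ± 0.25), Rpl3 (−0.14 ± 0.21) and Rpl39 (0.24 ± 0.26, SE) were not called. Rpl36 and Rpl36a, distinct proteins with like names, fell by 0.74 ± 0.03 and 0.78 ± 0.03 in WT and by 0.54 ± 0.03 and 0.55 ± 0.03 in KO (SE), and in Fvb/N were at 0.39 ± 0.27 and 0.30 ± 0.23 (SE).

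Members with a low share of 50-base words found in other genes also fell in the Dlx3 fractions. Of the 81, 7 share under 10% of their 50-base words, among them Rps3 at 2.96%. The share was taken over 1 transcript per gene, which was long for Rps15a (5179 bases), Rps20 (3706) and Rpl7l1 (2606), also among the 7. Their shared words occur in 64, 50 and 520 other genes, so a low share need not mean few shared reads. All 7 fell in WT, with a median of −0.83, and in KO, with a median of −0.66. The 42 members that share 50% or more had medians of −0.85 and −0.65. In Fvb/N the 7 had a median of 0.01 as deposited and 0.70 after rescaling, and the 42 had 0.22 and 0.90. Transcript length went with the change in Fvb/N only as a description, with a Spearman rho of −0.48 over the members and −0.25 over 11450 other genes. The 20 members under 600 bases had a median of 0.31, the 34 from 600 to under 1000 bases 0.18 and the 27 of 1000 bases or more 0.11. In WT the corresponding rho was 0.05, and the medians of the 3 length classes were −0.82, −0.84 and −0.83.

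The rest of the translation apparatus was read from lists chosen with earlier results of these data known. Between the WT fractions 70.4% of all genes were called lower and 19.2% higher, with a median of −0.40. In the WT fractions, 8 of 8 ribosome-linked genes outside the name rule (Fau, Rack1 and others) fell, with a median of −0.84. Tpt1, a TOP message, changed by −1.04 ± 0.02 (SE, adjusted p = 3.46e-10). Of the initiation factors 36 of 38 fell and 2 rose (median −0.51), among them Eif3h at −0.92 ± 0.03 (SE, adjusted p = 1.14e-09). Of the elongation factors 8 of 9 tested fell and 1 rose (median −0.40). The one that rose was Eef2k, the kinase that inhibits elongation factor Eef2, at 0.69 ± 0.02 (SE, adjusted p = 5.46e-09). Nucleolar assembly factors fell in 57 of 63 cases and rose in 1 (median −0.48), with Npm1, nucleophosmin, at −1.04 ± 0.03 (SE, adjusted p = 6.09e-10). RNA polymerase I genes fell in 12 of 15 cases and rose in 2 (median −0.31), and 77 of 78 mitochondrial ribosomal protein genes fell (median −0.65). The median of the cytoplasmic members was −0.83, and the difference from the mitochondrial ones was not tested. The elongation factors and the RNA polymerase I genes had medians near that of all genes.

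After rescaling, the WT medians of these lists were −0.35 for the ribosome-linked genes, −0.04 for initiation factors, 0.09 for elongation factors, −0.03 for nucleolar assembly factors, 0.07 for RNA polymerase I and −0.20 for mitochondrial ribosomal proteins, against −0.00 for all genes. In KO against WT suprabasal cells as deposited, where 21.6% of all genes were called higher and 15.7% lower, 5 of 8 ribosome-linked genes rose (Fau by 0.22 ± 0.02, SE, adjusted p = 0.000244), 25 of 78 mitochondrial ribosomal proteins rose and 2 fell, and 15 of 38 initiation factors rose and 3 fell. Of the nucleolar list 2 of 63 were higher and 13 lower, a share of lower calls near that of all genes (Nop56 at −0.17 ± 0.03, SE, adjusted p = 0.0015). RNA polymerase I genes were 2 higher and 4 lower of 15. In Fvb/N as deposited 60.6% of all genes were called lower and 13.4% higher, with a median of −0.55. There 42 of 63 nucleolar genes fell and 3 rose (Fbl at −0.83 ± 0.13, SE, adjusted p = 0.000406), with a median of −0.52, both near the values of all genes, and 35 of 78 mitochondrial ribosomal proteins fell and 3 rose, with a median of −0.26. The median of the cytoplasmic members there was 0.22. Of the other lists in Fvb/N, 15 of 38 initiation factors fell and 2 rose, 7 of 15 RNA polymerase I genes fell and 1 rose, 1 of 8 ribosome-linked genes fell and 1 rose, and 1 of 8 elongation factors tested fell and 2 rose. After rescaling, 19 of 63 nucleolar genes rose and 3 fell, and 37 of 78 mitochondrial ribosomal proteins rose and 3 fell, against 33.1% of all genes called higher and 34% lower. In the KO fractions as deposited, where 69.7% of all genes were called lower and 19.9% higher, 8 of 8 ribosome-linked genes, 35 of 38 initiation factors, 7 of 9 elongation factors, 59 of 63 nucleolar genes, 13 of 15 RNA polymerase I genes and 75 of 78 mitochondrial ribosomal proteins fell, as did 19 of 22 regulators of TOP messages and mTOR signalling and 8 of 13 Trp53 targets, of which 1 and 3 rose. In KO against WT basal cells at most 3 genes of any of these lists were called, against 4.23% of all genes higher and 2.98% lower.

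Of the regulators of TOP messages and mTOR signalling, 19 of 22 fell and 2 rose in WT, against 70.4% and 19.2% of all genes. Their median of −0.32 was a smaller fall than the −0.40 of all genes. After rescaling 6 were lower and 11 higher, against 39.2% and 40.3% of all genes. Rps6kb2, an S6 kinase, rose by 1.80 ± 0.04 (SE, adjusted p = 3.37e-10) and Mycn, a Myc family factor, fell by 1.07 ± 0.03 (SE, adjusted p = 1.82e-09). In Fvb/N 17 of 22 fell and 2 rose, against 60.6% and 13.4% of all genes, Rps6kb2 again among the latter at 1.78 ± 0.24 (SE, adjusted p = 0.000183). Larp1 was at 43.6 and 44.0 RPKM in WT basal and 45.2 and 44.5 in WT suprabasal libraries, which do not overlap but differ little. Of the Trp53 targets of nucleolar stress 4 of 13 tested rose and 7 fell in WT (median −0.23), fewer falls than the share of all genes. Cdkn1a, the cell cycle inhibitor, rose by 0.84 ± 0.03 (SE, adjusted p = 1.25e-08) and Kitl, the ligand of the melanocyte receptor Kit, fell by 1.14 ± 0.05 (SE, adjusted p = 1.42e-08). In KO against WT suprabasal cells 3 rose and 1 fell, against 21.6% and 15.7% of all genes, with Cdkn1a at 0.26 ± 0.03 (SE, adjusted p = 0.000596) and Mdm2 at −0.26 ± 0.04 (SE, adjusted p = 0.000806).

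In the authors' deposited table of ratios, the members' median suprabasal to basal ratio was 1.16 in Fvb/N, 0.559 in WT and 0.637 in KO. Their KO to WT ratio was 0.981 in basal and 1.12 in suprabasal cells by the authors' deposited table.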

How the data were processed

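RNA of basal and suprabasal epidermal fractions was sequenced in 16 libraries. The authors deposited RPKM per gene in 2 tables (Fvb/N and Dlx3), and ratio columns of their own comparisons, per the file headers. The submitters' processing notes name build mm10, bcl2fastq 2.20.0.422, TopHat2 2.1.1 and Partek. Strand handling and the rule for reads with several positions are not given in the sources used here. The estimated depth was 33.9 to 61.7 M reads, and 50% to 56.4% of low values lay within 0.05 of a whole read, so counts were not recovered.

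Deposited RPKM were turned into log2(RPKM + 1), which understates fold changes of low genes. Each table was fitted alone, since they were normalized apart. Genes with RPKM of at least 1 in at least 4 (Fvb/N, 11608 genes) or 2 (Dlx3, 12146 genes) libraries were tested with limma 3.58.1 in R 4.3.3 (eBayes with trend, group means). Benjamini-Hochberg adjustment ran over all genes tested, and a gene was called at adjusted p under 0.05. Counts at an unadjusted p under 0.05 are of members only. So are counts called with a replicate block, with the run code in the fit, without a filter or with 1 library left out. The shares of all genes for these counts are not given here. The Dlx3 fit used all 8 libraries, which share 1 estimate of the spread. "Rescaled" values were divided by the median ratio of a library's genes to the geometric mean of its table. Other alternatives were quantile normalization, a pseudocount of 0.1, no filter, each library left out in turn, the replicate number as a block and, in Fvb/N, the run code. The scripts were tested on simulated data. Tables and figures were made in Python 3.11.15 with matplotlib 3.10.9, scipy 1.17.1, numpy 2.4.6 and pandas 2.3.3.

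In Fvb/N, libraries with the same number in the labels deviated together (correlations of 0.51, 0.57, 0.56 and 0.12 between fractions), so the numbers were taken to pair them. Different numbers of 1 run code correlated as well (basal 2 with suprabasal 1 at 0.587, 1 with 2 at 0.360, 3 with 4 at 0.014 and 4 with 3 at 0.467), and numbers of different codes had values from −0.589 to −0.0637, so pairing by number and a shared run code are not separated by these values. The blocked counts stand beside the Fvb/N results. The members, the gene lists and the tests were chosen with earlier results of these data known. Named in each comparison are the stalk proteins, Rpsa, Rps6, members with known mutants, paralogs with their parents, up to 4 members with the largest positive and negative changes, and the member with the smallest p. From a pathway list, genes with the smallest p are named. Values of some single genes are not reported here. Larp1 and the Krt1, Krt5 and Krt10 values were chosen after their values were seen. The start-site windows and the shared 50-base words come from RefSeq and GENCODE tables of build GRCm38 (RefSeq GRCm38.p6).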

Additional observations from a re-analysis of the deposited data

Results flagged for a closer look

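The change between fractions differed between Dlx3 genotypes for 71 of 81 members by the limma interaction test, with the KO change above the WT change in each, against 14.4% of all genes called higher and 8.08% lower. With quantile normalization 6 members were higher and 5 lower. Rps4l had an interaction of 0.33 on the log2 scale, Rps15 of 0.31, Rpsa of 0.30 and Rplp1 of 0.29.

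In Fvb/N the difference in the members' share of summed RPKM between fractions had opposite signs in the 2 run codes as the sample labels give them. It was 3.47 percentage points higher in suprabasal than in basal cells in the earlier code (10.3% against 13.8%), and the later code gave −2.22 points (14.7% against 12.4%). Each mean is over 2 libraries, and the difference between codes was not tested on the share. With Krt1 and Krt10 left out of the total, the later code no longer gave a lower suprabasal share: it was 14.1% and 15.8% in basal and 13.6% and 16.8% in suprabasal libraries, which overlap. Within the Fvb/N groups, 46 values per group were checked for a library far from the other 3, and none passed Dixon's critical value.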

How the results depend on the processing

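Scaling changed several results, and the cause was not tested. In Fvb/N the 1 member called higher became 65 with rescaling, 5 with quantile normalization (and 1 called lower), 0 with no filter, 3 when the fit held the run code, 72 within the earlier and 0 within the later code. With rescaling it was 1 within the later code. Members called higher between WT fractions became 1 with rescaling and 1 with quantile normalization, and between KO fractions 7 and 3. With quantile normalization, KO against WT suprabasal cells gave 8 higher and 12 lower, and the interaction 6 higher and 5 lower, and 28 higher with no filter.

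Leaving out 1 library gave 0 to 14 higher and 0 lower in Fvb/N (14 without suprabasal 3) and 31 to 81 with rescaling (34 and 36 without basal 1 or 2, 31, 32 and 36 without suprabasal 1, 2 or 4). It gave 81 lower in WT (75 to 77 with rescaling), 80 to 81 in KO (59 to 65), 0 higher and 0 to 3 lower in KO against WT basal cells (3 without KO basal 2), 54 to 72 higher in KO against WT suprabasal cells, and 43 to 71 for the interaction. Where an arm is left with 1 library, it is assumed to vary like the other groups. Signs turned in the Fvb/N fractions Rpl10 −0.14 to 0.16, Rpl22 −0.06 to 0.28, Rpl24 −0.02 to 0.29, Rpl5 −0.04 to 0.34, Rpl7 −0.10 to 0.21, Rplp0 −0.08 to 0.16, Rps27 −0.08 to 0.23, Rps4x −0.27 to 0.04, Rps6 −0.20 to 0.10, Rpsa −0.07 to 0.22; in KO against WT basal cells Rpl24 −0.06 to 0.02, Rpl3 −0.02 to 0.01, Rpl30 −0.03 to 0.07, Rpl35a −0.00 to 0.03, Rpl36 −0.03 to 0.04, Rpl38 −0.05 to 0.03, Rplp0 −0.01 to 0.06, Rplp1 −0.06 to 0.03, Rplp2 −0.02 to 0.01, Rps19 −0.02 to 0.03, Rps27 −0.05 to 0.05; in KO against WT suprabasal cells Rps27l −0.05 to 0.05; in the interaction Rpl30 −0.06 to 0.05.

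With median-ratio rescaling, in the Fvb/N fractions, the reversed log2 fold changes were Rpl10 0.68, Rpl3 0.54, Rpl4 0.41, Rpl7l1 0.45, Rps3 0.52, Rps4x 0.56 and Rps6 0.63. With median-ratio rescaling, in the KO fractions, the reversed log2 fold changes were Rpl11 0.07, Rpl7 0.01, Rplp0 0.17, Rplp1 0.24, Rps4l 0.07 and Rpsa 0.06. With median-ratio rescaling, in KO against WT basal cells, the reversed log2 fold changes were Rpl24 0.00, Rpl3 0.01, Rpl38 0.01, Rpl39 0.00, Rplp1 0.01 and Rplp2 0.02. With median-ratio rescaling, in KO against WT suprabasal cells, the reversed log2 fold changes were Rps27l 0.01. With quantile normalization, in the Fvb/N fractions, the reversed log2 fold changes were Rpl7 −0.12, Rpl7l1 0.14, Rplp0 −0.28 and Rpsa −0.12. With quantile normalization, in the KO fractions, the reversed log2 fold changes were Rpsa 0.00. With quantile normalization, in KO against WT basal cells, the reversed log2 fold changes were Rpl10 0.01, Rpl24 0.02, Rpl3 0.02, Rpl38 0.00, Rpl5 0.00, Rpl7 0.01, Rplp1 0.02, Rplp2 0.05 and Rps20 0.02. With quantile normalization, in KO against WT suprabasal cells, the reversed log2 fold changes were Rpl10 −0.16, Rpl22 −0.08, Rpl22l1 −0.03, Rpl24 −0.09, Rpl3 −0.08, Rpl5 −0.07 and Rps4x −0.03. With quantile normalization, in the interaction, the reversed log2 fold changes were Rpl10 −0.17, Rpl22 −0.02, Rpl24 −0.12, Rpl3 −0.10, Rpl5 −0.07, Rplp0 −0.02, Rplp2 −0.00, Rps19 −0.02, Rps27l −0.01 and Rps4x −0.02. Within the earlier run code, in the Fvb/N fractions, the reversed log2 fold changes were Rpl10 0.45, Rpl3 0.20, Rpl4 0.03, Rpl7l1 0.00, Rps3 0.20, Rps4x 0.35 and Rps6 0.39. Within the later run code, in the Fvb/N fractions, the reversed log2 fold changes were Rpl11 −0.02, Rpl22 −0.32, Rpl24 −0.47, Rpl26 −0.11, Rpl36 −0.05, Rpl36a −0.16, Rpl39 −0.25, Rpl5 −0.37, Rpl7 −0.45, Rplp0 −0.40, Rplp2 −0.15, Rps19 −0.31, Rps20 −0.32, Rps27 −0.48, Rps27l −0.21 and Rpsa −0.43. Of all values of named members under alternatives, 1963 kept direction and call, 90 lost the call, 61 gained it and 125 turned. These include fits without a library of a group outside the comparison. There the fold change stays the same and only the call can change.

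The replicate block gave 2 members in Fvb/N and 55 with rescaling. The Dlx3 numbers did not pair libraries (correlations 0.02, 0.02, 0.06 and −0.02), and the block gave 81 lower in WT and KO, 72 higher in KO against WT suprabasal cells and 72 for the interaction. Depth limits none of the tested members, while 2 libraries per Dlx3 group limit the estimate of spread, and reads shared with pseudogenes limit single members.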
